A study of Rattus norvegicus with 105 samples.

Results

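Oligodendrocytes are the cells that wrap axons of the brain in myelin, and 33 genes known to mark these cells or their precursors were followed across 105 arrays of rat frontal cortex. A gene was taken as a member by its symbol in the array's probe-to-gene table, and the probe set with the highest mean signal stood for it. Of the 33 genes, 32 could be measured, out of 14217 named genes on the array. The remaining gene was Tf, the iron carrier transferrin, whose probe sets each carried several gene symbols and so could not be assigned. The members were 26 measured genes of mature, myelinating cells, 4 transcription factors of the lineage and 2 surface proteins of precursor cells. The factors were Olig1, Olig2, Sox10 and Nkx2-2, and the surface proteins were Pdgfra and Cspg4.

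The study held 3 experiments, each with its own control. In the lesion experiment 12 arrays came from animals with a lesioned ventral hippocampus, a region that projects to the frontal cortex, and 10 from sham animals. In the TTX experiment 11 arrays came from rats given tetrodotoxin, a blocker of voltage-gated sodium channels, in the ventral hippocampus, and 9 from sham animals. In the neuroleptic experiment 9 vehicle arrays were set against clozapine and haloperidol. Clozapine, an atypical antipsychotic, had 10 arrays at low, 9 at medium and 8 at high dose. Haloperidol, a typical antipsychotic, had 9 arrays at each of the 3 dose levels. The dose levels were given as words only. Strain, age, sex, genotype, the time between treatment and dissection, and whether each array came from its own animal do not appear in the labels read here. The p-values therefore reflect how far these arrays scatter, and some of that scatter may be technical.

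Myelin is built from stacked oligodendrocyte membrane, in which a few proteins and galactose-containing lipids are made in large amounts. Precursor cells, marked by the growth factor receptor PDGFRA and the proteoglycan NG2 (Cspg4), persist in the adult cortex and can still become myelinating cells. Olig2 and Sox10 act from the precursor stage onward, whereas Myrf switches on the late myelin programme. In a piece of cortex the myelin genes are most abundant in the deep layers and the white matter beneath them, so the depth of a dissection enters their level. Because each array measured bulk tissue, fewer oligodendrocytes and less RNA per oligodendrocyte cannot be told apart.

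All levels are log2 of array intensities normalised within an experiment, and differences are on the same scale, so that each unit is a doubling. A difference is given with its standard error, and it was called when limma's adjusted p over the 18625 probe sets tested in an experiment was under 0.05. Mbp, Mog, Mag, Mobp, Cnp, Cldn11, Opalin, Ermn and Myrf were all among the 60% of probe sets with the highest mean in every experiment, and so were both precursor genes. Of 12 neuronal markers measured, 12 also passed. The members that failed this filter were Olig2 in the lesion experiment and Nkx6-2 in the TTX experiment, which left 31, 31 and 32 members tested in the lesion, TTX and neuroleptic experiments. Mbp ranked between 10 and 50 of 31042 probe sets on every array, where quantile normalisation fixes the value at each rank. Its residual SD in the lesion experiment was 0.11 after normalisation against 0.19 in the values as deposited. In the TTX and neuroleptic experiments these SDs were 0.10 against 0.12 and 0.10 against 0.13.

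None of the 12 comparisons gave a called member. The same comparisons called few probe sets of any kind. In lesion against sham, TTX against sham, the lesion effect against the TTX effect, and clozapine against vehicle, 0% of all probe sets tested were called. An unadjusted p under 0.05 was reached by 7.81% of all probe sets for the lesion, 4.63% for TTX, 6.34% for the difference between both effects and 3.81% for clozapine. For haloperidol against vehicle 0.0161% were called and 6.73% had an unadjusted p under 0.05, and for clozapine against haloperidol 1.2% were called and 15.2% had one.

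After the ventral hippocampal lesion, most myelin genes lay slightly below sham, but none by more than the spread between arrays allowed to be called. Of the 26 mature members 21 had a lower mean in the lesion group, with a median difference of -0.09, whereas 9399 of the 18625 probe sets tested were lower, with a median of -0.00. The mature members move together from array to array, with a mean pairwise correlation of 0.65 within groups here. Counts of members in a direction are therefore not independent, in this and the other comparisons. None of the 31 members tested had an unadjusted p under 0.05. The members furthest below sham were Mog, Car2 and Mal, and those furthest above were Cryab, Pdgfra and Nkx6-2.

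Mog encodes myelin oligodendrocyte glycoprotein, on the outermost face of the sheath. Its level ran from 12.39 over a median of 12.70 to 13.27 in the sham arrays and from 11.69 over 12.46 to 13.28 in the lesion arrays. The ranges overlapped, with 6 of 12 lesion arrays below every sham array and 1 above all of them. The difference was -0.28 ± 0.15, a ratio of 0.82, with 8 of 12 arrays below the sham mean (limma, adjusted p = 0.69). Without lesion replicate 7 it was -0.35, and without lesion replicate 3 it was -0.21.

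Car2, the cytosolic carbonic anhydrase of oligodendrocytes, ran from 13.64 over 13.92 to 14.58 in sham and from 13.16 over 13.80 to 14.42 in lesion arrays. The lesion arrays reached lower, with 4 below the sham range and 10 of 12 below the sham mean, for a difference of -0.22 ± 0.12 (limma, adjusted p = 0.70). Mal, a proteolipid of compact myelin, ran from 12.80 over 13.08 to 13.32 in sham and from 12.10 over 12.82 to 13.82 in lesion arrays. For Mal the lesion group was the wider one on both sides, with 6 arrays below and 3 above the sham range, and the difference was -0.21 ± 0.16 (limma, adjusted p = 0.79).

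The other proteins of compact myelin gave smaller values. Mbp, the basic protein that holds the cytoplasmic faces of the membrane together, ran from 16.36 over 16.44 to 16.61 in sham and from 16.16 over 16.41 to 16.61 in lesion arrays, and differed by -0.04 ± 0.05. Cldn11, which forms the tight junctions of myelin, differed by -0.15 ± 0.11 and Mobp, another basic protein, by -0.02 ± 0.14. Of the 6 compact myelin genes 5 were below sham.

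All 7 members of the sheath's surface and inner, non-compact layers were below sham, with a median of -0.14. Mag, the adhesion protein that faces the axon, ran from 12.06 over 12.34 to 12.63 in sham and from 11.63 over 12.35 to 12.65 in lesion arrays, so that the medians were close while the lesion arrays reached lower, and it differed by -0.14 ± 0.11. Cnp, an enzyme of the non-compact cytoplasm, ran from 14.17 over 14.28 to 14.60 in sham and from 13.77 over 14.25 to 14.66 in lesion arrays, and differed by -0.10 ± 0.10. Opalin and Ermn, proteins of the sheath's inner and outer loops, differed by -0.15 ± 0.16 and -0.18 ± 0.18. For these 4 genes limma's adjusted p lay at 0.80, 0.85, 0.85 and 0.84.

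Among the 6 lipid genes 5 were below sham. They included Ugt8, Gal3st1 and Fa2h, which make the galactolipids of myelin, at -0.14 ± 0.15, -0.08 ± 0.11 and -0.13 ± 0.10. Cryab, a small heat shock protein abundant in oligodendrocytes, was the highest of the mature members at 0.08 ± 0.11. Nkx6-2, a homeodomain factor of late differentiation, stood at 0.03 ± 0.17, and its sign turned when the values were taken as deposited (-0.02).

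The precursor genes did not share a direction. Pdgfra ran from 12.35 over 12.71 to 12.89 in sham and from 12.45 over 12.73 to 13.09 in lesion arrays, a difference of 0.07 ± 0.08 (limma, adjusted p = 0.86). Cspg4 ran from 9.14 over 9.51 to 9.70 in sham and from 8.82 over 9.35 to 9.63 in lesion arrays, a difference of -0.17 ± 0.10 with 9 of 12 arrays below the sham mean (limma, adjusted p = 0.72). Olig1, Sox10 and Nkx2-2 were at -0.08 ± 0.07, -0.01 ± 0.10 and -0.13 ± 0.13, and Olig2, which was not tested here, at -0.09 ± 0.20.

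The lesion arrays were spread more widely than the sham arrays, and this difference in spread was not tested. The mean of the 26 mature members, each centred on its experiment, ran from -0.09 over 0.00 to 0.34 in sham and from -0.49 over 0.00 to 0.53 in lesion arrays. Its SD was 0.13 over 10 sham arrays and 0.31 over 12 lesion arrays. The medians were equal to 2 decimals, and the means were 0.05 in sham and -0.04 in lesion arrays. Of the lesion arrays 5 lay below the whole sham range and 1 above it. That highest array, lesion replicate 7, and sham replicate 9, the highest of its own group, also had the lowest mean correlation with the other arrays of the experiment (0.95 each). Without both arrays 23 of 26 mature members were below sham and the median difference was -0.10. Leaving out lesion replicate 3 gave a median of -0.05 and leaving out lesion replicate 7 gave -0.14.

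The titles carry running numbers, which were cut here into sets of equal size, 2 in the lesion and TTX experiments and 3 in the neuroleptic experiment. The titles mark no such sets, and each holds only part of a group's arrays. Within the lesion set with the lower numbers the median difference of the mature members was -0.17, with 22 of 26 below sham. Within the set with the higher numbers it was 0.00, with 12 of 26 below sham. The labels do not say what the numbers stand for. The correlation of the mature mean with the title number, after removal of group means, was 0.21 over 22 arrays.

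**Figure D1:**
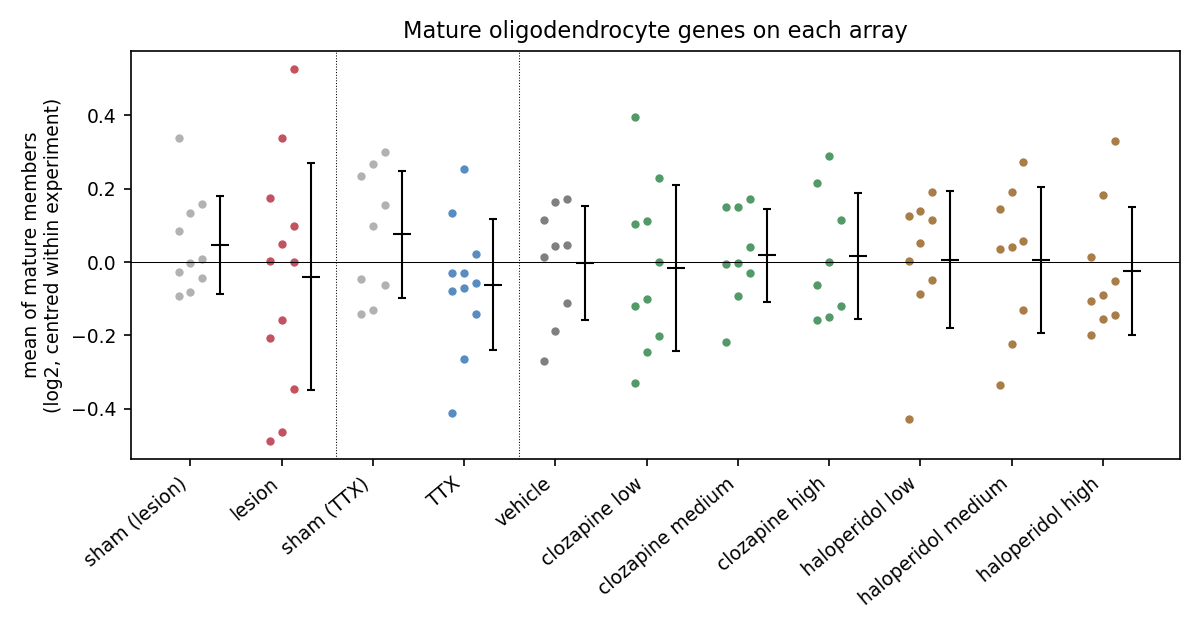
Mean of the 26 measured mature members on each array, in log2 units and centred on the mean of its experiment, for the 11 groups. Each point is an array, each horizontal tick the group mean, and each vertical bar the SD of the group around it. Lesion arrays span -0.49 to 0.53 against -0.09 to 0.34 in their sham group, and the 7 neuroleptic groups overlap throughout.

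After tetrodotoxin in the ventral hippocampus most mature members were also below sham, again with no called member. Of 25 mature members tested 23 were below sham, with a median of -0.14, beside 9376 of all 18625 probe sets with a median of -0.00. Lpar1 and Cspg4 had an unadjusted p under 0.05. These were 2 of 31 members, near the 4.63% of all probe sets.

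Lpar1, a receptor for lysophosphatidic acid on oligodendrocytes, ran from 13.15 over 13.52 to 13.66 in sham and from 12.92 over 13.25 to 13.62 in TTX arrays. The groups overlapped, with 4 of 11 TTX arrays below the sham range and 10 of 11 below the sham mean. The difference was -0.20 ± 0.09, a ratio of 0.87 (limma, unadjusted p = 0.032, adjusted p = 0.999). A second Lpar1 probe set gave -0.05 ± 0.11.

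Cspg4 ran from 9.45 over 9.48 to 9.77 in sham and from 8.53 over 9.41 to 9.75 in TTX arrays. The lower end was set by TTX replicate 1, and 6 of 11 TTX arrays lay below the narrow sham range. The difference was -0.24 ± 0.12, with 8 of 11 arrays below the sham mean (limma, unadjusted p = 0.050, adjusted p = 0.999), and -0.16 without TTX replicate 1. Pdgfra, the other precursor gene, ran from 12.57 over 12.74 to 12.99 in sham and from 12.49 over 12.66 to 12.98 in TTX arrays and differed by -0.06 ± 0.07.

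All 6 compact myelin genes and all 7 surface and inner-layer genes were below sham, with medians of -0.12 and -0.19. Mog ran from 12.54 over 12.83 to 13.33 in sham and from 12.29 over 12.65 to 13.01 in TTX arrays, and differed by -0.20 ± 0.10 with 9 of 11 arrays below the sham mean (limma, adjusted p = 0.999). Gjb1, the connexin of oligodendrocyte gap junctions, was at -0.21 ± 0.14. Cnp ran from 14.19 over 14.49 to 14.96 in sham and from 13.92 over 14.33 to 14.66 in TTX arrays, a difference of -0.14 ± 0.10.

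Mbp and Mag gave the smallest differences among the best-known myelin proteins. Mbp ran from 16.44 over 16.59 to 16.77 in sham and from 16.33 over 16.55 to 16.67 in TTX arrays and differed by -0.05 ± 0.05. Mag ran from 12.19 over 12.58 to 12.87 in sham and from 11.99 over 12.43 to 13.00 in TTX arrays and differed by -0.05 ± 0.12.

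Enpp2, autotaxin, which makes lysophosphatidic acid, had the lowest difference of all members tested, -0.27 ± 0.20, and it rested on 1 sham array. Enpp2 stood at 14.86 in sham replicate 3, while the median over the other arrays of the experiment was 12.72 and their highest value 13.04. Without that array the difference was -0.04. Ttr, the transthyretin of choroid plexus, stood at 16.65 on the same array against a median of 8.64 over the others and a highest other value of 11.15, and Kl and Slc13a4 were also highest there. Igf2 and Igfbp2, of the same meningeal and choroid plexus list, each ranked 2 of 20 there. Of the fibroblast genes of the meninges, Col1a1 ranked 4 and Col3a1 ranked 12 of 20, and the others on the list were not ranked.

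Olig2 went the other way, at 0.32 ± 0.19. It ran from 7.98 over 9.02 to 9.62 in sham and from 8.91 over 9.17 to 9.57 in TTX arrays, so that the TTX arrays lay inside the sham range and all 11 were above the sham mean (limma, adjusted p = 0.999). Within the set with the higher title numbers its difference was -0.03. Its partner Olig1 was at -0.08 ± 0.08, Sox10 at -0.13 ± 0.09 and Nkx2-2 at 0.01 ± 0.09. Plekhb1 and Fa2h were the mature members above sham, each at 0.02. Nkx6-2 was not tested in this experiment and stood at -0.36 ± 0.25, with 6 of 11 arrays below the sham mean.

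The mean of the mature members ran from -0.14 over 0.10 to 0.30 in sham and from -0.41 over -0.06 to 0.25 in TTX arrays. Of the TTX arrays 9 of 11 lay below the sham mean and 3 below the sham range. The SDs, 0.17 over 9 sham and 0.18 over 11 TTX arrays, were close, unlike in the lesion experiment, and this difference between experiments was not tested. The median difference of the mature members was -0.15 within the set with lower and -0.09 within the set with higher title numbers. With a smooth curve of the title number in the fit the median was -0.25, all 25 mature members were below sham and 19 of 31 members had an unadjusted p under 0.05, yet none was called and the lowest adjusted p was 0.16 (limma).

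**Figure D2:**
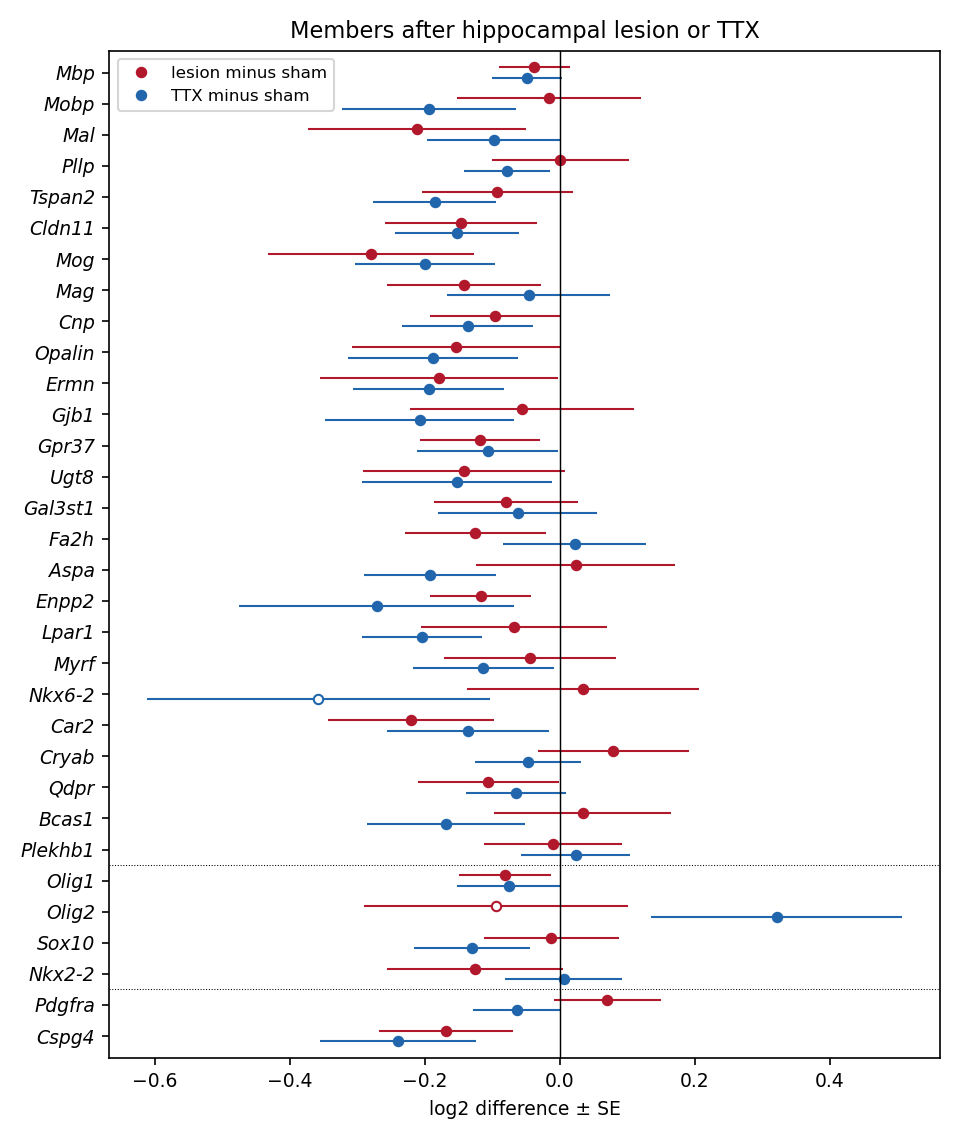
Log2 difference from sham for each measured member, with its standard error, in the lesion and TTX experiments; open circles mark the members that did not pass the filter, and dotted lines part mature, lineage and precursor genes. Most mature members lie left of 0 in both experiments, with medians of -0.09 and -0.14, and no member was called.

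In the joint fit of both experiments, 16 of 25 mature members had a higher lesion effect than TTX effect, with a median of 0.02 beside 0.00 over all probe sets, and 0 of 31 members had an unadjusted p under 0.05. Olig2 gave the lowest value, -0.42 ± 0.27 (limma, adjusted p = 0.85), followed by Fa2h at -0.15 ± 0.15 and Nkx2-2 at -0.13 ± 0.16. The highest were Aspa, the enzyme that frees acetate from N-acetylaspartate for lipid synthesis, at 0.22 ± 0.19, Bcas1 at 0.20 ± 0.18 and Mobp at 0.18 ± 0.19.

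The best-known members stood closer to 0 in this contrast, with Mbp at 0.01 ± 0.07, Cnp at 0.04 ± 0.14, Mog at -0.08 ± 0.19 and Mag at -0.10 ± 0.17. Cspg4 was at 0.07 ± 0.16 and Pdgfra at 0.13 ± 0.10. The signs of Mbp, Mog and Mag turned under other settings, and leaving out 1 array turned those of Mbp (-0.01), Cnp (-0.02) and Cspg4 (-0.01).

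Neuroleptics left the myelin genes centred on vehicle. For clozapine, averaged over its dose levels, 15 of 26 mature members were above vehicle and 11 below, with a median of 0.01, beside a median of -0.00 over all probe sets. For haloperidol 12 were above and 14 below, with a median of -0.01 beside -0.01 over all probe sets. Both drugs were compared with the same 9 vehicle arrays, so their values are not independent. The mean of the mature members ran from -0.27 over 0.04 to 0.17 in vehicle, from -0.33 to 0.39 over the 27 clozapine arrays and from -0.43 to 0.33 over the 27 haloperidol arrays, so the treatments overlapped widely. Within the 3 sets of title numbers, from the lowest to the highest, the median difference of the mature members was 0.18, 0.01 and -0.19 for clozapine and 0.05, -0.05 and -0.06 for haloperidol.

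With either drug the representative probe sets of Mbp, Mog, Mag and Cnp differed from vehicle by about their standard error or less. A further Mbp probe set, described below, lay further from vehicle with haloperidol. Mbp was at 0.01 ± 0.04 with clozapine and 0.01 ± 0.04 with haloperidol. Mog was at 0.01 ± 0.10 and -0.05 ± 0.10, Mag at -0.00 ± 0.10 and -0.10 ± 0.10, and Cnp at 0.02 ± 0.08 and -0.03 ± 0.08. The vehicle arrays of these genes ran from 16.40 over 16.53 to 16.75, from 12.13 over 12.78 to 12.95, from 11.97 over 12.61 to 12.82 and from 14.16 over 14.43 to 14.62. Every treated group had its median inside the vehicle range of the same gene. The lineage factor Olig2 was at 0.03 ± 0.16 and -0.08 ± 0.16, Pdgfra at 0.03 ± 0.08 and -0.04 ± 0.08, and Cspg4 at 0.01 ± 0.12 and -0.10 ± 0.12.

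Nkx6-2 had the highest value with either drug. It ran from 8.34 over 8.66 to 9.13 in vehicle, and the medians of the clozapine groups were 9.14, 9.07 and 9.32 at low, medium and high dose. Of 27 clozapine arrays 15 lay above the vehicle range and 1 below it. The clozapine difference was 0.36 ± 0.16, a ratio of 1.29, with 20 of 27 arrays above the vehicle mean (limma, unadjusted p = 0.029, adjusted p = 0.98). With haloperidol the medians were 9.02, 9.06 and 8.82 at low, medium and high dose and the difference was 0.31 ± 0.16 (limma, unadjusted p = 0.062, adjusted p = 0.77). The members next in order with clozapine were Sox10, at 0.20 ± 0.17, and Plekhb1, at 0.07 ± 0.08. The lowest were Opalin, Tspan2 and Gal3st1, at -0.10 ± 0.12, -0.09 ± 0.10 and -0.09 ± 0.12.

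Qdpr, dihydropteridine reductase, which recycles the cofactor of aromatic amino acid hydroxylases and is abundant in oligodendrocytes, had the smallest p between the drugs among the representative probe sets of the members. Its vehicle arrays ran from 14.00 over 14.40 to 14.56. The medians were 14.37, 14.34 and 14.47 at low, medium and high clozapine and 14.21, 14.35 and 14.20 at low, medium and high haloperidol. The clozapine and haloperidol arrays overlapped, yet 7 of 27 haloperidol arrays lay below all clozapine arrays. Clozapine minus haloperidol was 0.13 ± 0.04, with 23 of 27 clozapine arrays above the haloperidol mean (limma, unadjusted p = 0.0034, adjusted p = 0.10). It was called only with the set of title numbers as a covariate, at 0.13 and an adjusted p of 0.046 (limma). In the 63 fits that left out 1 array the adjusted p lay between 0.0549 and 0.149 (limma). Against vehicle, haloperidol gave -0.13 ± 0.06, with 20 of 27 arrays below the vehicle mean (limma, unadjusted p = 0.041, adjusted p = 0.72), and clozapine gave 0.00 ± 0.06.

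Fa2h, the fatty acid 2-hydroxylase of myelin lipids, pointed the other way. Its vehicle arrays ran from 10.89 over 11.19 to 11.33, and the medians were 11.29, 11.06 and 11.02 at low, medium and high clozapine and 11.36, 11.32 and 11.20 at low, medium and high haloperidol. Clozapine minus haloperidol was -0.16 ± 0.06, with 19 of 27 clozapine arrays below the haloperidol mean (limma, unadjusted p = 0.011, adjusted p = 0.17). Against vehicle the values were -0.02 ± 0.08 for clozapine and 0.14 ± 0.08 for haloperidol. Qdpr and Fa2h were 2 of 32 members with an unadjusted p under 0.05 in this comparison, where 15.2% of all probe sets had one.

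The other extremes with haloperidol were Gal3st1, the sulfotransferase that makes sulfatide, at -0.20 ± 0.12 with 21 of 27 arrays below the vehicle mean, and Cryab at -0.11 ± 0.09, and on the upper side Sox10 at 0.15 ± 0.17. Between the drugs, Mbp differed by -0.00 ± 0.03, Mog by 0.06 ± 0.07, Mag by 0.09 ± 0.07 and Cnp by 0.05 ± 0.06. Olig2, Pdgfra and Cspg4 differed by 0.11 ± 0.11, 0.07 ± 0.06 and 0.10 ± 0.08. A p that missed the threshold does not show that the drugs acted alike on these genes, and for the mature members as a set the median difference was 0.01.

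Mbp had a further probe set, with a lower signal, that did differ between the drugs. It did not represent the gene under the rule and was singled out after its value was seen. It ran from 11.68 over 12.33 to 12.71 on the 27 clozapine arrays and from 11.97 over 12.60 to 12.99 on the 27 haloperidol arrays. The ranges overlapped, with 23 of 27 clozapine arrays below the haloperidol mean, and clozapine minus haloperidol was -0.29 ± 0.08 (limma, unadjusted p = 0.00037, adjusted p = 0.043). Haloperidol minus vehicle was 0.28 ± 0.11 (limma, adjusted p = 0.65). The representative Mbp probe set and the remaining one differed between the drugs by -0.00 ± 0.03 and 0.03 ± 0.06. The call was kept in 37 of 63 fits that left out 1 array and was lost without the filter on low values at an equal difference of -0.29 (limma, adjusted p = 0.078), without the arrays of low mean correlation at -0.28 (adjusted p = 0.074) and with a smooth curve of the title number, at -0.20 (adjusted p = 0.44). Within the 3 sets of title numbers, from the lowest to the highest, the difference was -0.04, -0.34 and -0.48.

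**Figure D3:**
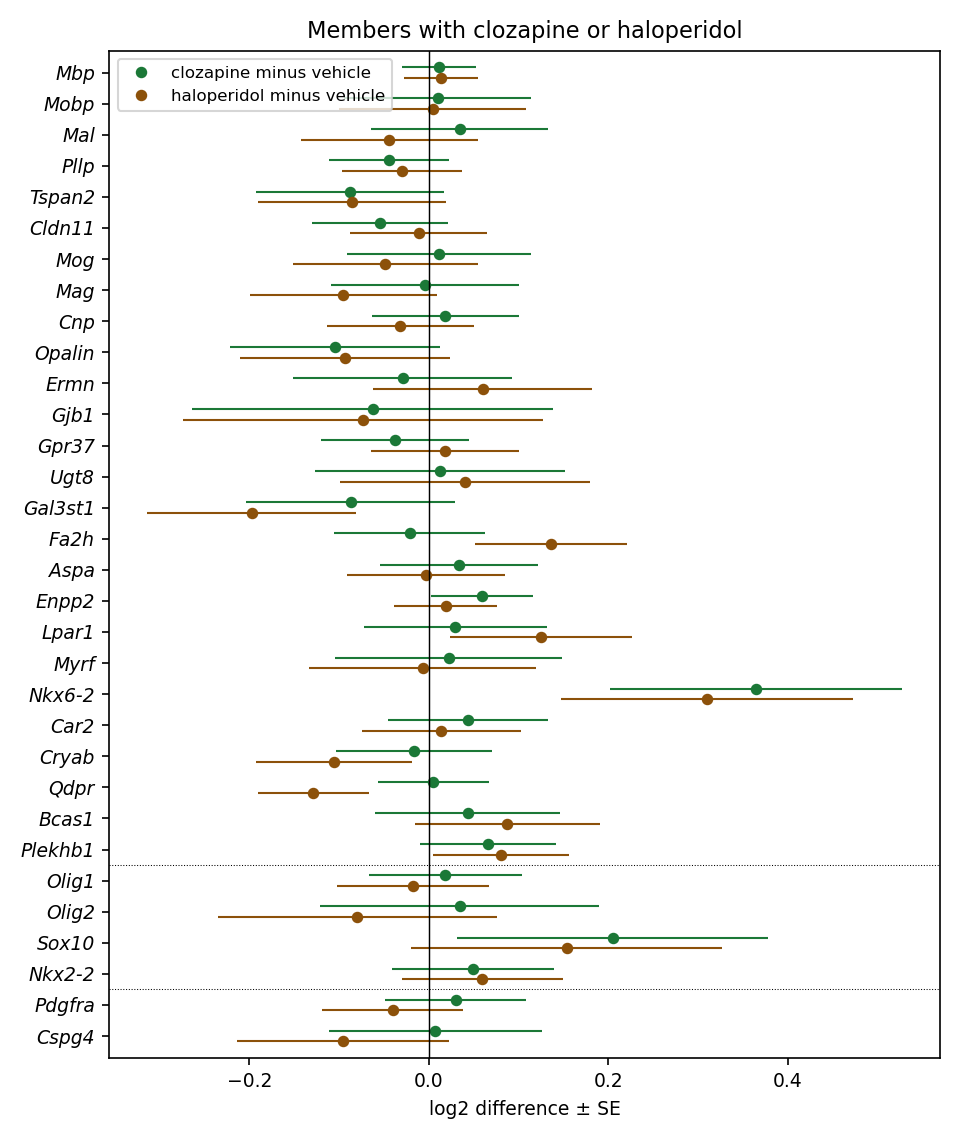
Log2 difference from vehicle for each measured member, with its standard error, for the mean of the clozapine and of the haloperidol dose levels; dotted lines part mature, lineage and precursor genes. The members scatter around 0, Nkx6-2 lies furthest right with 0.36 and 0.31, and Qdpr lies left of 0 with haloperidol only.

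**Figure D4:**
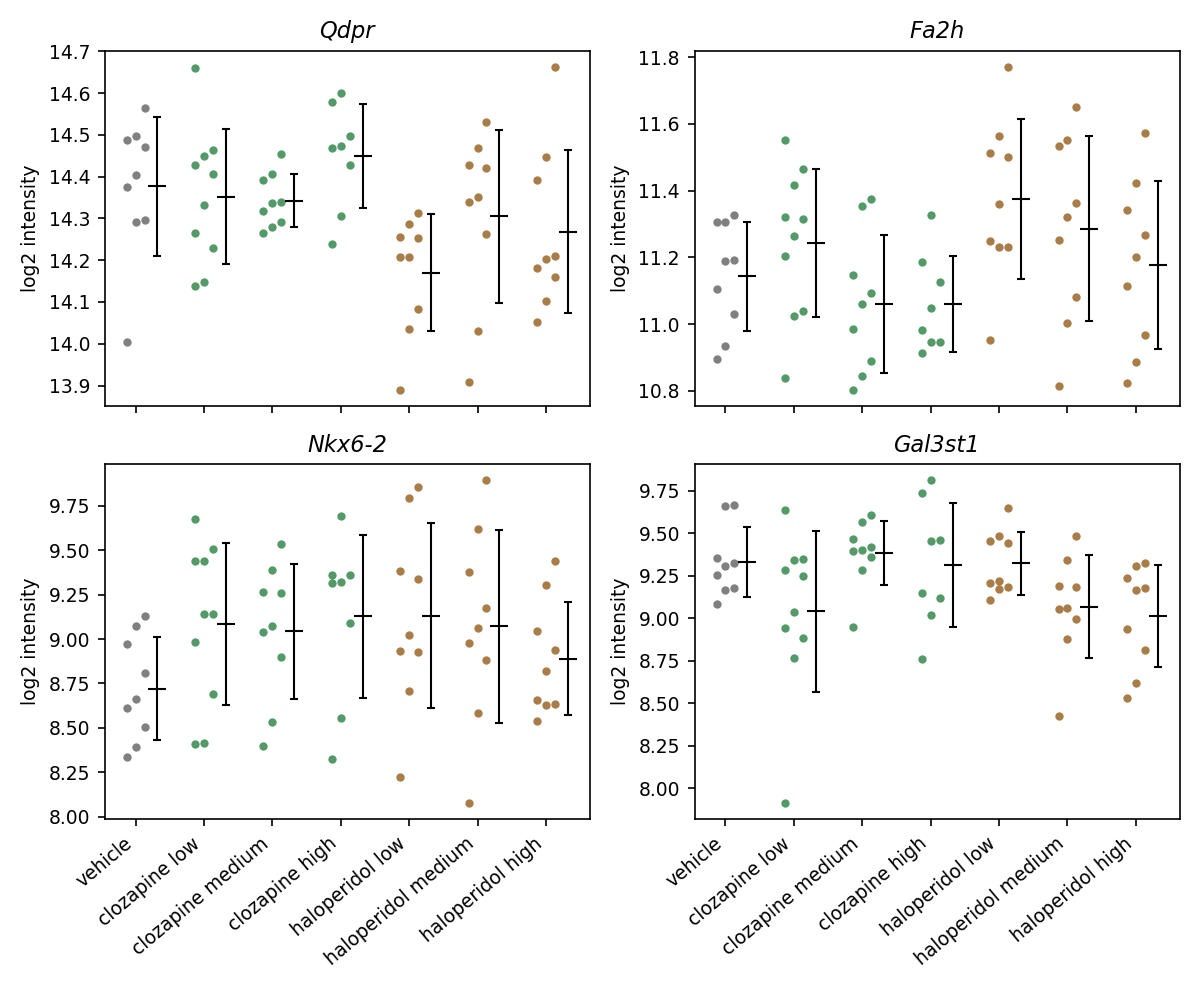
Log2 level of Qdpr, Fa2h, Nkx6-2 and Gal3st1 on each array of the 7 neuroleptic groups. Each point is an array, each horizontal tick the group mean, and each vertical bar the SD of the group around it. For Qdpr the low and high haloperidol groups have the lowest medians, 14.21 and 14.20, and all groups of each gene overlap.

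No member was called at a single dose level. At low clozapine 0% of all probe sets were called and 2.72% had an unadjusted p under 0.05, and of the members Gal3st1 did, at -0.29 ± 0.14 (limma, unadjusted p = 0.039, adjusted p = 0.9998). Gal3st1 ran from 9.08 over 9.31 to 9.67 in vehicle and from 7.91 over 9.14 to 9.64 at low clozapine, with 5 of 10 arrays below the vehicle range. Without low clozapine replicate 8, the lowest array, the difference was -0.17. At medium clozapine it was 0.05 ± 0.14 and at high clozapine -0.02 ± 0.15, so the value at low dose had no counterpart at the others. At medium clozapine 0.0215% of all probe sets were called and 4.06% had an unadjusted p under 0.05, at high clozapine 0.00537% and 3.87%, and at neither did a member have one.

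At low haloperidol 0% of all probe sets were called and 4.25% had an unadjusted p under 0.05, among them 3 of 32 members. Qdpr ran from 13.89 over 14.21 to 14.31 there, with all 9 arrays below the vehicle mean, and differed by -0.21 ± 0.08 (limma, unadjusted p = 0.0083, adjusted p = 0.9999). Fa2h ran from 10.95 over 11.36 to 11.77, with 8 of 9 arrays above the vehicle mean, and differed by 0.23 ± 0.10 (limma, unadjusted p = 0.029). Nkx6-2 ran from 8.22 over 9.02 to 9.86 and differed by 0.41 ± 0.20 (limma, unadjusted p = 0.044). The values at medium and high haloperidol were smaller for all 3 genes: Qdpr was at -0.07 ± 0.08 and -0.11 ± 0.08, Fa2h at 0.14 ± 0.10 and 0.03 ± 0.10, and Nkx6-2 at 0.35 ± 0.20 and 0.17 ± 0.20. A trend over dose was not tested.

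At medium haloperidol 0.00537% of all probe sets were called, 4.69% had an unadjusted p under 0.05 and no member did. At high haloperidol the shares were 0.0268% and 7.75%. There Gal3st1 ran from 8.53 over 9.17 to 9.32, with all 9 arrays below the vehicle mean and 4 below the vehicle range, and differed by -0.32 ± 0.14 (limma, unadjusted p = 0.028, adjusted p = 0.58). The mature members had a median of -0.05 at high haloperidol, and between -0.01 and 0.02 at the other 5 dose levels. Within sets of title numbers the low clozapine median took opposite signs. It was 0.40 with 0 of 26 mature members lower in set 1 and -0.33 with 25 of 25 lower in set 3. At high clozapine it was -0.24 with 24 of 25 lower in set 3. Each set held few arrays of a dose level, and the members move together, so these counts are not independent.

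Other genes of the lineage were taken from a list of mature oligodendrocyte genes that are not members. Their mean followed the mean of the members within groups, at correlations of 0.94, 0.94 and 0.93 over the lesion, TTX and neuroleptic arrays. Their direction is therefore not independent of that of the members. Of 42 listed genes 34 were measured. In lesion against sham 24 of 33 tested were below sham, with a median of -0.09, and in TTX against sham 26 of 32, with a median of -0.08. None was called. The smallest p in the lesion experiment belonged to Pex5l, at -0.23 ± 0.07 (limma, unadjusted p = 0.005, adjusted p = 0.51), and in the TTX experiment to Evi2a, at -0.19 ± 0.07 (limma, unadjusted p = 0.018). With clozapine the smallest belonged to Lgi3, at -0.15 ± 0.08, with haloperidol to Zfp536, at -0.25 ± 0.10, and between the drugs to S1pr5, at 0.32 ± 0.09 (limma, adjusted p = 0.059).

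On a list of 18 further genes of precursors and differentiating cells 13 were measured, and none was called. In the lesion experiment 6 of 10 tested were above sham, with a median of 0.12, and the smallest p belonged to C1ql1, a secreted protein of precursor cells, at 0.30 ± 0.09 with 11 of 12 arrays above the sham mean (limma, unadjusted p = 0.004, adjusted p = 0.51). In the TTX experiment 5 of 11 were above sham, with a median of -0.04.

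Markers of other cell types were read beside these values. In lesion against sham 9 of 11 astrocyte genes were below sham with a median of -0.02, 7 of 10 microglial genes above with a median of 0.06, 8 of 13 endothelial and mural genes below with a median of -0.12, and 8 of 12 neuronal genes below with a median of -0.03. In TTX against sham the medians were -0.03, 0.02, -0.04 and -0.01 in the same order. Meningeal and choroid plexus genes had medians of -0.07 and -0.05 in the lesion and TTX experiments, with 5 of 8 and 8 of 9 below sham, and 2 blood genes tested had -0.05 and 0.11. None of these markers was called, and their part in the values of the myelin genes was not tested.

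In the neuroleptic experiment none of these markers was called either. With clozapine the medians were -0.02, -0.05, 0.01 and -0.01 for astrocyte, microglial, endothelial and mural, and neuronal genes, and with haloperidol -0.04, -0.08, -0.07 and -0.01. Meningeal and choroid plexus genes had -0.03 and 0.01, and the 2 blood genes tested 0.29 and -0.03. At high clozapine Alas2, an enzyme of heme synthesis in red cell precursors, was at 1.03 ± 0.30, a ratio of 2.04. There 8 of 8 arrays lay above the vehicle mean for Alas2 (limma, unadjusted p = 0.0012, adjusted p = 0.987), and Hbb, a globin, was at 0.72 ± 0.25. Both genes were below vehicle at low clozapine, Alas2 at -0.34 ± 0.28 and Hbb at -0.32 ± 0.24. At medium clozapine they were at 0.30 ± 0.29 and 0.38 ± 0.24. Slc4a1, the blood gene that was not tested, stood at 0.15 ± 0.32 at high clozapine. At low haloperidol C1qa, a complement protein of microglia, was at -0.22 ± 0.06, with 9 of 9 arrays below the vehicle mean (limma, unadjusted p = 0.0013). C1qa was also below vehicle at every other dose level, between -0.19 at high clozapine and -0.02 at medium haloperidol. The microglial list did not share 1 direction. Csf1r was above vehicle at every dose level, between 0.04 at low and 0.12 at high clozapine. At low haloperidol Csf1r, Cx3cr1 and Ctss were above vehicle, at 0.11, 0.03 and 0.04, and Laptm5 was at 0.00. Aif1, C1qb, C1qc, Tyrobp and P2ry12 were below vehicle there. All dose levels were set against the same vehicle arrays.

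The mature members moved together from array to array within a group. After group means were removed, the mean correlation between any pair of the 26 was 0.65 over 22 arrays of the lesion experiment, 0.50 over 20 of the TTX experiment and 0.48 over 63 of the neuroleptic experiment. Over all probe sets tested it was 0.00 in each. Marker lists of other cell types also had shared movement, with 0.35, 0.44 and 0.11 for 3 blood genes, 0.31, 0.32 and 0.27 for 10 meningeal and choroid plexus genes, 0.22, 0.20 and 0.20 for 13 endothelial and mural genes, 0.15, 0.34 and 0.07 for 11 astrocyte genes, 0.21, 0.01 and 0.08 for 12 microglial genes and 0.05, 0.04 and 0.18 for 12 neuronal genes. The first principal component held 67.6%, 56.7% and 52.6% of the variance of the mature members. These correlations are descriptions, since the genes share arrays, dissection and normalisation. Their SD within groups was also larger, with a median of 0.29, 0.24 and 0.26 for the mature members against 0.20, 0.19 and 0.22 over all probe sets.

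Each member was correlated with the mean of the other mature members, in the order lesion, TTX and neuroleptic experiment. Mobp reached 0.86, 0.95 and 0.93, Bcas1, a marker of newly myelinating cells, 0.91, 0.93 and 0.87, and Mog 0.92, 0.88 and 0.84. Mag and Cnp lay at 0.87, 0.87 and 0.85 and at 0.86, 0.86 and 0.86. Mean pairwise correlations within roles were 0.78, 0.69 and 0.66 for compact myelin, 0.76, 0.56 and 0.56 for the surface and inner layers, and 0.70, 0.52 and 0.53 for the soluble proteins, which include Bcas1, and 0.56, 0.29 and 0.31 for the lipid genes.

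Some mature members followed less. Nkx6-2 lay at 0.40, 0.13 and 0.37 and Gjb1 at 0.65, 0.11 and 0.44. Aspa lay at 0.63, 0.35 and 0.45, and Enpp2 at 0.63, 0.34 and 0.51. The TTX value of Enpp2 includes sham replicate 3. The first of these, Nkx6-2, had not passed the filter in the TTX experiment.

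The lineage factors ranged widely. Olig1 lay at 0.74, 0.87 and 0.61, Sox10 at 0.66, 0.29 and 0.40 and Nkx2-2 at 0.50, 0.32 and 0.45, while Olig2 stood at 0.12, 0.21 and 0.14. Pdgfra lay at -0.33, 0.34 and -0.10 and Cspg4 at -0.01, 0.18 and -0.05, so that in the TTX experiment Pdgfra was close to Sox10 and Nkx2-2. The mean of the 13 other genes of precursors and differentiating cells correlated with the mature mean at -0.33, 0.28 and 0.40, and at -0.31, 0.03 and 0.41 without the 2 farthest arrays.

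**Figure D5:**
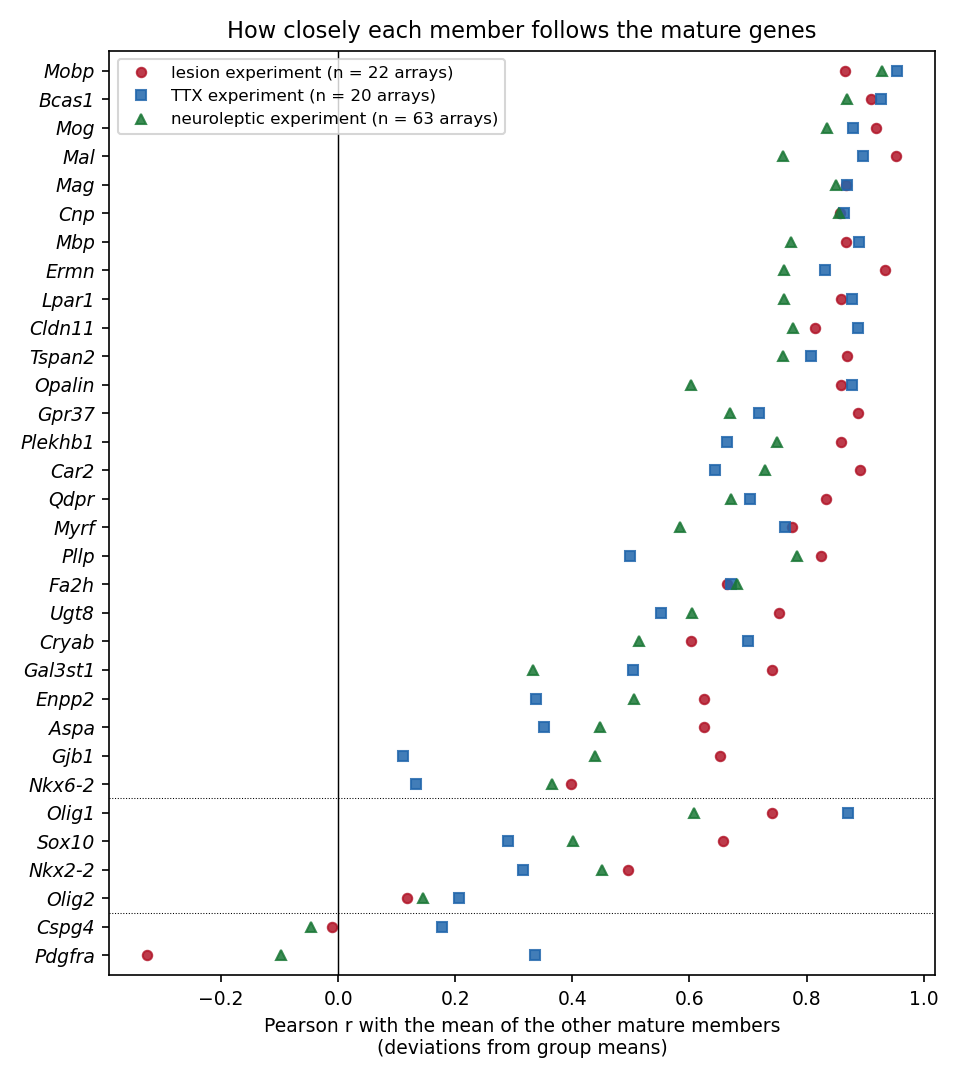
Pearson correlation of each measured member with the mean of the other mature members, after removal of group means, in the lesion (22 arrays), TTX (20 arrays) and neuroleptic (63 arrays) experiments. Mobp, Bcas1, Mog, Mag and Cnp lie above 0.8 in all 3, and Pdgfra and Cspg4 lie between -0.33 and 0.34.

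Genes outside the member list moved with the same axis. The mean of the 34 other mature genes correlated with the mean of the members at 0.94, 0.94 and 0.93, and at 0.95, 0.91 and 0.91 without the 2 arrays farthest from the median. Of 9966 named genes that are no members, 22 had a correlation over 0.6 in all 3 experiments, and 9 of these were on that list. The 10 closest, ranked by their lowest correlation, were Evi2a, Hapln2, Ndrg1, Abca8a, Slc12a2, Ttyh2, Ppp1r14a, Slc44a1, Plekhh1 and Galnt6, from 0.82 for Evi2a to 0.66 for Galnt6. Hapln2 links proteoglycans at nodes of Ranvier and Slc44a1 is a choline transporter.

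Marker means of other cell types tracked the axis less evenly. The astrocyte mean correlated with it at -0.05, 0.61 and 0.34, the neuronal mean at -0.02, 0.50 and 0.05, the microglial mean at -0.31, 0.15 and 0.11 and the endothelial and mural mean at -0.16, 0.36 and -0.06, in the order lesion, TTX and neuroleptic experiment. Several of these rest on few arrays. Without the 2 farthest arrays the neuronal values were 0.32, 0.16 and -0.05, the endothelial and mural values 0.30, 0.25 and -0.09, the astrocyte values 0.10, 0.49 and 0.33 and the microglial values -0.44, 0.06 and 0.11. The meningeal and choroid plexus mean lay at 0.19, 0.24 and 0.05, and at 0.40, 0.18 and 0.15 without those arrays. The blood mean lay at 0.45, 0.18 and 0.08, and at 0.31, 0.20 and 0.05 without them.

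The promoters of the members were searched for 3 short motifs on both strands. RefSeq promoters on the rat assembly GRCr8 were at hand for 23 of the 33 members, in 24 promoters since Mbp had a pair. The letters were CTGGCAC for Myrf, ACAAAG for the core bound by SoxE factors such as Sox10, and CAGCTG for the E-box, and no motif overlapped another in the stretches shown. CTGGCAC occurred in 5 of 24 member promoters, 20.8%, those of Mag, Opalin, Mal, Cnp and Olig2, beside 3.78% of 33469 promoters in all. ACAAAG occurred in 20.8% beside 16.3%, and CAGCTG in 16.7% beside 12%. A match describes letters, not a bound site, and the absence of one says nothing about the factor.

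Whether the matches followed the correlations above was not tested, and the genes pointed both ways. Mag, Cnp, Mal and Opalin, with Myrf letters, had higher correlations in every experiment than Gjb1 and Aspa, whose promoters held none. Gjb1 and Aspa were among the mature members that followed less. On the other side, the promoters of Mobp, Mbp, Cldn11, Tspan2 and Plekhb1 held no Myrf letters and that of Olig2 did. Opalin, at 0.60 in the neuroleptic experiment, lay below Pllp (0.78) and Fa2h (0.68), whose promoters also held none. To show what matches look like, the 250 bases before the start of Mag, Cnp and Mal, chosen because they hold Myrf letters, and of Pdgfra, which holds none, are given 5′ to 3′ on the gene's strand, with motif letters on either strand in capitals. They lie at chr1:95291045-95291294 (minus strand), chr10:86011254-86011503 (plus strand), chr3:135341424-135341673 (minus strand) and chr14:33408517-33408766 (minus strand).
Mag: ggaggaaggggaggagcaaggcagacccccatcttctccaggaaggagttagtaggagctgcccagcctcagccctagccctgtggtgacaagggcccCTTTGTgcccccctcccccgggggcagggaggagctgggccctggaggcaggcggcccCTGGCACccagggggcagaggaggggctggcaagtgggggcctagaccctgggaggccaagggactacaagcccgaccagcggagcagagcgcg
Cnp: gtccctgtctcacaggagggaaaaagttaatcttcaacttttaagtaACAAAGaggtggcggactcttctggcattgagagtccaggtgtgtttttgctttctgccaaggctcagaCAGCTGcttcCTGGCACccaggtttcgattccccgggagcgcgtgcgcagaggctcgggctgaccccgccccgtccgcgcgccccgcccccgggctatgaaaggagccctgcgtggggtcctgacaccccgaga
Mal: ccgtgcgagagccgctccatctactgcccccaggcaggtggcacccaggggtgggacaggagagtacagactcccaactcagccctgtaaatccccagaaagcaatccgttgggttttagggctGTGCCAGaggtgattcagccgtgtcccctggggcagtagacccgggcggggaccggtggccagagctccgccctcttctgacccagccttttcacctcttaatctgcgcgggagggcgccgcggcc
Pdgfra: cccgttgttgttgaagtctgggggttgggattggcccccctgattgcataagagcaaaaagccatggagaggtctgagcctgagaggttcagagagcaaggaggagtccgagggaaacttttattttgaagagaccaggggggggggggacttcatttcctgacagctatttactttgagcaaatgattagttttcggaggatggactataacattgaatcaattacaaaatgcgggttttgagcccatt

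In the Mag stretch the capitals are 1 SoxE core on the opposite strand and 1 Myrf motif, and in the Cnp stretch 1 of each of the 3 motifs. In the Mal stretch they are 1 Myrf motif on the opposite strand, and the Pdgfra stretch holds none.

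Where a gene had several probe sets, these did not always point the same way. Of 8 members with more than 1 tested probe set, the signs differed for 2 in lesion against sham, 0 in TTX against sham, 1 between both effects, 3 with clozapine, 3 with haloperidol and 5 between the drugs. Outside the representative probe sets, an Ermn probe set was lower with TTX, at -0.37 ± 0.11 (limma, unadjusted p = 0.004, adjusted p = 0.999), ran from 10.79 over 11.17 to 11.54 in sham and from 10.10 over 10.97 to 11.11 in TTX arrays, and so overlapped. The representative Ermn probe set was at -0.19 ± 0.11.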

How the data were processed

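RNA of rat frontal cortex was measured on 105 one-colour Affymetrix arrays, 1 per sample, in 11 groups of 3 experiments taken from the labels. The authors deposited linear intensities in a value table of 31099 probe sets. The software that made them is not given in the sources used here, and a mean that leaves out the 2% extremes ranged from 2500.62 to 2500.77 across arrays, so they had been scaled. The 57 control probe sets were left out. Of the remaining 31042, the platform table gave 1 gene symbol for 20826, several for 436 and none for 9780.

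Intensities were quantile-normalised within each experiment, floored at 32 and taken to log2. The 60% of probe sets with the highest mean were tested with limma 3.58.1 in R 4.3.3, and p-values were adjusted by Benjamini-Hochberg over all 18625 tested, with calls under 0.05. The fit was also run on simulated data in which each probe set varied on its own. The mature members move together, so that run does not show how the fit treats them as a set. The lesion and TTX effects were compared in a joint fit over arrays normalised separately. No pair of arrays held identical values. The number of arrays limits the precision.

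Members and lists were chosen with earlier results of these data known. Named in full were the 3 highest and 3 lowest members of each main comparison, those with an unadjusted p under 0.05, and Mbp, Mog, Mag, Cnp, Olig2, Pdgfra and Cspg4. From each further oligodendrocyte list the gene with the smallest p was named, and so were the 10 genes that followed the mature members most closely. Alternatives were the deposited scale without quantile normalisation, a floor of 128, no filter or the top 40%, averaged probe sets, sets or a 3-df spline of title numbers, array weights, leaving out arrays with a mean correlation over 3 median absolute deviations low, and leaving out each array.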

Additional observations from a re-analysis of the deposited data

Results flagged for a closer look

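Of 315 checks of a member or of a mean over members in a group of up to 10 arrays, 22 found a highest or lowest array that stood far from the others, where chance gives about 1 in 20. The values are log2 levels. In the lesion sham group, Mobp (15.48), Myrf (11.59) and Cryab (12.89) stood apart on replicate 9 and Cldn11 (14.19) on replicate 8. In the TTX sham group Enpp2 (14.86) did so on replicate 3.

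In vehicle, Qdpr was at 14.00 on replicate 3, Sox10 at 11.03 on replicate 6 and Pdgfra at 12.12 on replicate 4. In the clozapine groups, Opalin was at 11.17 on medium replicate 7, Gjb1 at 6.55 on medium replicate 2 and Gal3st1 at 8.95 on medium replicate 8. At low clozapine Ugt8 was at 12.32 on replicate 1, and Gal3st1 (7.91) and Cspg4 (8.28) stood apart together on replicate 8.

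At high haloperidol Pllp was at 12.88 on replicate 8 and Nkx2-2 at 9.23 on replicate 7. At medium haloperidol Cldn11 (14.35) and Bcas1 (13.35) stood apart on replicate 2. At low haloperidol Mal (12.81), Mog (12.03) and the mean of the mature members (-0.43) stood apart on replicate 6, and Cspg4 (8.45) on replicate 9. What set these arrays apart was not tested.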

How the results depend on the processing

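No member was called in any alternative or leave-one-out fit, except Qdpr between the drugs with the set of title numbers as a covariate, which raised the count of members called to 1. Left-out arrays moved the median of the mature members between -0.14 and -0.05 for the lesion and between -0.19 and -0.09 for TTX. No paired analysis was possible because the replicate numbers were given in accession order and pair no arrays. No TTX array had a low mean correlation, so that alternative gave no TTX value.

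Within sets of title numbers, each with few arrays of a dose level, the median of the mature members was 0.40 at low clozapine in set 1. In set 3 it was -0.19 for clozapine, -0.33 at low and -0.24 at high clozapine. The following signs turned, all of uncalled values, and the cause was not tested. With values as deposited, the lesion gave Nkx6-2 -0.021, the lesion effect minus the TTX effect Mbp -0.076, clozapine Cspg4 -0.014 and clozapine minus haloperidol Mbp 0.018. With array weights, the lesion gave Nkx6-2 -0.021, TTX Plekhb1 -0.000608, the difference of both effects Mbp -0.0041, clozapine Mog -0.000715 and clozapine minus haloperidol Mbp 0.0026. Without arrays of low mean correlation, the lesion gave Nkx6-2 -0.049 and clozapine minus haloperidol Mbp 0.0093. With the set as a covariate clozapine gave Mag 0.016.

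With a spline of the title number, the lesion gave Nkx6-2 -0.048, TTX Fa2h -0.074 and Plekhb1 -0.13, the difference of both effects Mog 0.017 and Mag 0.11, clozapine Mag 0.026 and Cspg4 -0.017, haloperidol Mbp -0.0027, Mog 0.026 and Pdgfra 0.044, and clozapine minus haloperidol Mbp 0.012 and Pdgfra -0.020.

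Within set 1, TTX gave Gjb1 0.050 and Plekhb1 -0.041, the difference of both effects Mbp -0.027, clozapine Opalin 0.14, Tspan2 0.050, Gal3st1 0.083, Mag 0.31, Pdgfra -0.030 and Cspg4 -0.21, haloperidol Cryab 0.020 and Mag 0.13, clozapine minus haloperidol Mbp 0.034 and low clozapine Gal3st1 0.15. Within set 2, the lesion gave Mal 0.068 and Cryab -0.078, TTX Enpp2 0.049, Olig2 -0.034 and Mag 0.075, the difference of both effects Nkx2-2 0.058 and Mog 0.054, clozapine Mbp -0.0099 and Mag 0.000298, haloperidol Mbp -0.030, Cnp 0.10, Olig2 0.076 and Cspg4 0.26, and clozapine minus haloperidol Mbp 0.020 and Cspg4 -0.015. Within set 3, clozapine gave Plekhb1 -0.052, Sox10 -0.059, Mbp -0.062, Mog -0.19 and Cnp -0.24, haloperidol Sox10 -0.11 and Mbp -0.014, and clozapine minus haloperidol Mog -0.16 and Cnp -0.083.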

Other observations

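Some named genes ran against the mature members from array to array in all 3 experiments. They fall outside the rule for named genes and were chosen after their values were seen. The correlations, over 22 lesion, 20 TTX and 63 neuroleptic arrays after removal of group means, were -0.73, -0.65 and -0.53 for Crym, -0.80, -0.67 and -0.51 for Zcchc12, and -0.57, -0.62 and -0.50 for Cck. Crym binds thyroid hormone in the cytosol, and Cck encodes the peptide cholecystokinin. These are descriptions of arrays that share dissection and normalisation.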
